A study of Mus musculus with 16 samples.

Results

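The transcripts described here were read by 27 probes that gave a detected signal in mouse lung on every array of the study and were lower after cigarette smoke than in room air. They were selected from measured values. A probe had to have a detection p-value under 0.05 on all 16 arrays, and the mean of its log2 signal, relative to the array's median signal, had to be 1 or more lower over the 10 smoke arrays than over the 6 air arrays. Of 25697 probes, 12316 were detected on all arrays and 27 of these (0.219%) met the second condition, while 114 were higher under smoke by 1 or more. The smoke-air difference chose the members, so it is given below as a description and without a test. The platform annotation named 17 of the 27, each for a different gene, and left 10 without a name, which are given by probe ID.

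The study measured total RNA from homogenates of whole lung on Illumina MouseRef-8 v2 arrays. Wild-type C57BL/6 mice and Mmp28-/- mice on that background, which lack matrix metalloproteinase 28, an enzyme secreted into the extracellular matrix, breathed either smoke or room air. The groups were wild-type air (n = 3), knockout air (n = 3), wild-type smoke (n = 5) and knockout smoke (n = 5). Smoke exposure began at an age of 7 to 9 weeks and lasted 3 months, with 3R4F reference cigarettes burnt for 3 hours on 5 days of each week at 250 tpm/m3, and air mice sat in a like chamber in the same building. The labels match the animals for age and sex but do not give the sex, do not say that replicates were separate animals, and do not describe the deleted part of Mmp28. The p-values below therefore measure the spread between these samples, which may be technical.

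Whole lung is mixed tissue. Besides epithelium, vessel wall and connective tissue, it holds the blood in its vessels and resident and passing immune cells, so RNA of red cells, neutrophils and lymphocytes is part of every sample. Young red cells leave the marrow with a store of RNA for globin chains, heme synthesis and membrane proteins and lose it as they mature. Cytotoxic lymphocytes and natural killer cells carry RNA for perforin and granzymes, and interferons raise a shared set of antiviral genes in nearly every cell type.

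Between 13971 and 15238 probes were detected per array. The background signal was 109 to 124 units on air arrays and 122 to 135 on smoke arrays, and its part in the falls was not tested beyond a fit with background as a covariate, in which the members' median difference was -2.19 in wild type and -2.05 in knockout. Of 9 lung marker genes, 8 had a probe in the annotation, among them Sftpc of alveolar type 2 cells and Scgb1a1 of club cells. All 11 probes of these genes were detected on all arrays. Both Xist probes were detected on all 16 arrays, the probes of the Y-linked genes Eif2s3y and Kdm5d on none, and that of Uty on 11 at levels of 4.48 to 5.64. The detected Mmp28 probe did not separate the genotypes, with levels of 5.82 ± 0.19 (SD, n = 3) in wild-type air, 5.69 ± 0.32 (SD, n = 3) in knockout air, 5.99 ± 0.33 (SD, n = 5) in wild-type smoke and 5.73 ± 0.31 (SD, n = 5) in knockout smoke. The other Mmp28 probe was detected on no array. A probe outside the deleted part checks nothing, so the genotype labels are used as given. For the members, replicate 1 of wild-type air and replicate 3 of knockout smoke stood apart from their groups, and replicate 2 of knockout air was high for the red-cell genes. Where leaving out 1 array moved a member's smoke-air difference by over 1.5 times, that array and the value without it are given.

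Levels below are log2 intensities after background correction and quantile normalization, and differences on this scale are larger than those of the selection rule, which left the background in the signal. The rule value ran from -2.69 for the Erich5 probe to -1.05 for the Hbb-b2 probe, with a median of -1.51, beside 0.04 over all 12316 probes. Just inside the threshold lay ILMN_1223511 (-1.125), Bpifb1 (-1.073) and Hbb-b2 (-1.05). Just outside it lay probes for Srrm2 (-0.994) and Pld4 (-0.989) and a further probe for Bpifb1 (-0.988). After background correction the members' median difference between smoke and air was -2.29 in wild type and -1.92 in knockout, beside -0.02 and -0.0 over the 16126 probes tested. Of the 27 members, 20 met the threshold in each genotype by itself, and all 27 were lower under smoke in both. In wild type Hr missed the threshold (-0.91 on the rule's scale). In knockout Slc4a1 (-0.97), Rsad2 (-0.95), ILMN_2696610 (-0.89), Bpifb1 (-0.86), Hbb-bt (-0.84) and Hbb-b2 (-0.66) missed it. On 18 members every air array lay above every smoke array, as it did for 673 of the 12316 probes detected on all arrays (5.46%), a count that the selection itself raises.

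The members varied between replicates of 1 group more than most probes, with a median within-group SD of 0.50 against 0.20 over all probes detected on every array. This variation sorted the members. Deviations of each probe from its group means were correlated over the 16 arrays with those of Alas2 and of Erich5, and a probe with r above 0.6 was placed with that gene. Of the members, 8 varied with Alas2 and 17 with Erich5, counting these genes themselves, and Xist and Bpifb1 with neither, though the r of Xist with Erich5, 0.594, lay just under the limit. The sets were made from these correlations, so they are descriptive and carry no p. Correlations between other members were not used for the sorting. Xist had an r of 0.82 with Gm7609, while Gm7609 had 0.133 with ILMN_1223511, though both of these were placed with Erich5. All probes share the same 16 arrays.

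**Figure D1:**
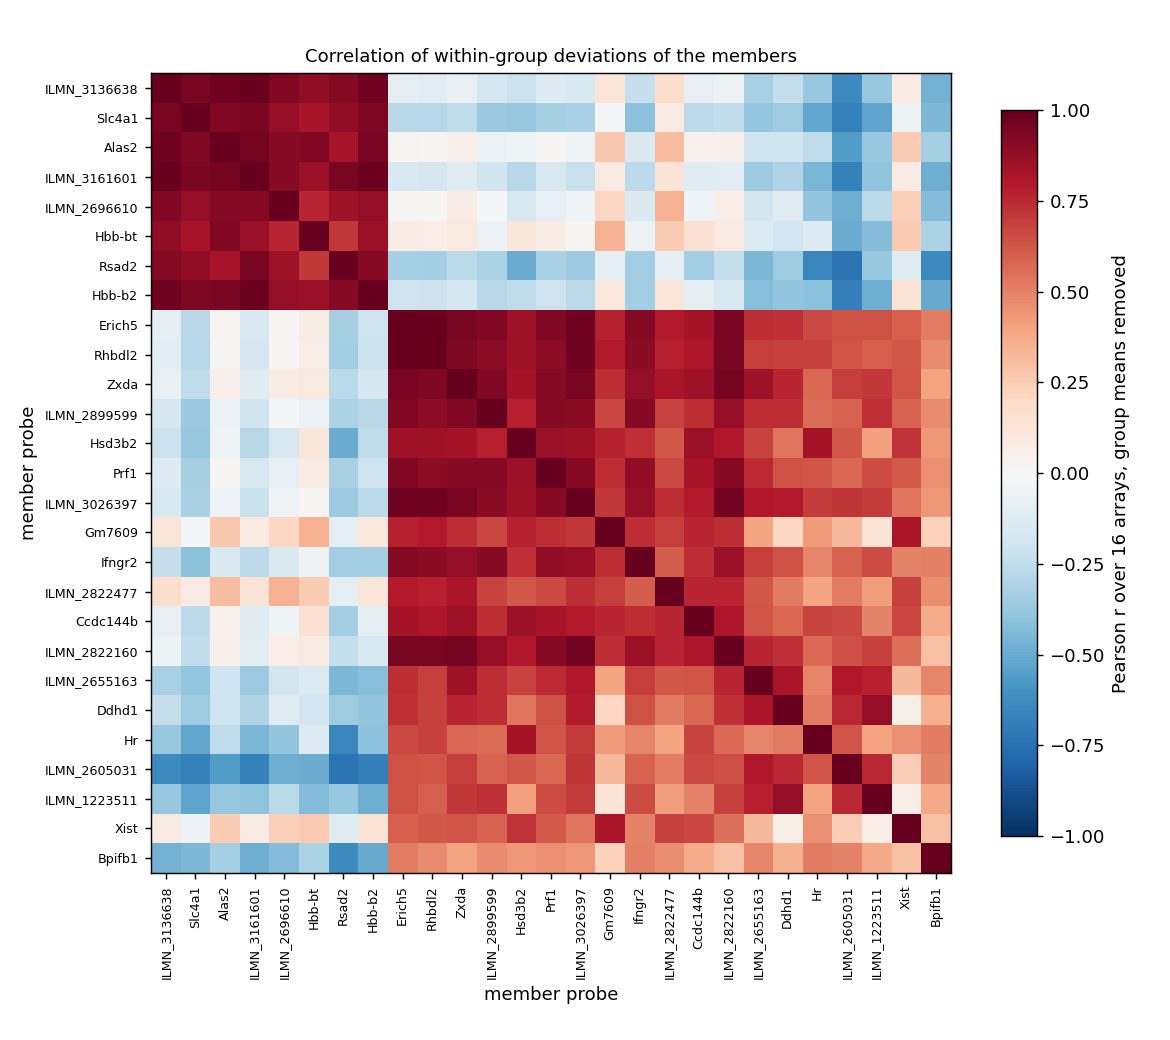
Pearson correlation (colour, from -1 to 1) between the 27 member probes over 16 arrays after each group's mean was removed, with probes in the same order on both axes. The first 8 were placed with Alas2 and the next 17 with Erich5, and Xist and Bpifb1 are the last 2.

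The set around Alas2 held 4 genes of red cells, the antiviral gene Rsad2 and 3 unnamed probes (ILMN_3136638, ILMN_3161601 and ILMN_2696610). Their r with Alas2 ran from 0.823 to 0.972 (Spearman's rho 0.662 to 0.929), and from 0.752 to 0.984 without the 2 arrays that stood apart. Their r with Erich5 ran from -0.329 to 0.078. Promoters of 3 of its 5 named genes were in the RefSeq table (build GRCm38.p6) and are shown because these members varied together within groups. Each line covers 250 bases before to 50 after the annotated start, read along the gene's strand, and capitals mark every match to the motifs named next.
Alas2 (chrX:150547167-150547466, plus strand): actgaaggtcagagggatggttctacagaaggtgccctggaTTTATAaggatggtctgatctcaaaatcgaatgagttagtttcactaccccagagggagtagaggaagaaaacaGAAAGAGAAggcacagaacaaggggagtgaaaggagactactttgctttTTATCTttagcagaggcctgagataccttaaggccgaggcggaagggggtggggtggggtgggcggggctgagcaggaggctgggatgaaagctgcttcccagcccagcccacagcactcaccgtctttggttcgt
Hbb-bt (chr7:103813874-103814173, minus strand): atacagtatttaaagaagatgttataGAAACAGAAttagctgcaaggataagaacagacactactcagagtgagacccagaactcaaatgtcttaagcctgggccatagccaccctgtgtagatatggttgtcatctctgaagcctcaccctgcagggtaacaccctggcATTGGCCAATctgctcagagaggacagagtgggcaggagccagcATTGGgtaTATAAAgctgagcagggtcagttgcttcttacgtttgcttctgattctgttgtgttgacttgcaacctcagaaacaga
Rsad2 (chr12:26456403-26456702, minus strand): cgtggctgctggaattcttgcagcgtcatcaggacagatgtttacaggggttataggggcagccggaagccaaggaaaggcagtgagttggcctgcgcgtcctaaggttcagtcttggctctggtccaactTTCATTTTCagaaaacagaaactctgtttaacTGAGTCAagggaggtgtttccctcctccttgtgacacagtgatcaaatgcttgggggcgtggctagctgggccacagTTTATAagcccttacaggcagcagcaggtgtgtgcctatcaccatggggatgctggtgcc

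Motifs were searched on both strands in the 14 promoters of 12 member genes and in all 32851 promoters of that table. The TATA box (TATAAA) was in 4 member promoters (28.6%), those of Alas2, Hbb-bt, Rsad2 and Xist, against 13.6% of all. In Hbb-bt it began 28 bases before the start, near 3 copies of the CCAAT box (CCAAT), the first 2 of which adjoin on opposite strands. CCAAT was in 28.6% of member promoters and 37.4% of all. The core of the interferon element (GAAANNGAA) was in 3 member promoters (21.4%), again Alas2, Hbb-bt and Rsad2, against 8.56% of all, and in Rsad2 it lay 119 bases before the start on the reverse strand. The GATA element (AGATAA) was in those of Alas2 and Ccdc144b (14.3% against 11.2% of all) and the AP-1 site (TGACTCA) in that of Rsad2 (7.14% against 5.2%). No member promoter held the D-box (TTATGTAA), the E-box (CACGTG), the ROR element (TAGGTCA), the cAMP element (TGACGTCA) or the KLF element (CCACACCC), which 0.938%, 7.15%, 2.61%, 1.79% and 3.56% of all promoters held. The interferon core, GATA and CCAAT motifs were added after the members' names were seen, and no 2 of the motifs overlapped in the 3 sequences shown. These matches are letters in a window and say nothing of factor binding.

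Alas2 encodes the enzyme that starts heme synthesis in red-cell precursors. Its level was 12.34, 11.62 and 10.19 on the wild-type air arrays and 10.43, 12.05 and 10.54 on the knockout air arrays. On smoke arrays it was 8.89, 9.39, 9.09, 9.10 and 9.35 in wild type and 8.66, 8.85, 10.96, 9.67 and 9.64 in knockout. The air arrays were spread widely, with replicates 1 and 2 of wild type and 2 of knockout high, and replicate 3 of knockout smoke reached into the air range. The difference was -2.22 in wild type, a level 4.66-fold lower, and -1.45 in knockout, or 2.73-fold lower. The knockout value was -0.93 without replicate 2 of knockout air.

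Slc4a1 encodes band 3, the anion exchanger of the red-cell membrane. The level of its probe was 12.08, 9.47 and 7.84 on the wild-type air arrays and 7.99, 9.64 and 8.0 on the knockout air arrays. The smoke values were 6.67, 7.10, 6.77, 6.54 and 7.06 in wild type and 5.76, 6.09, 8.17, 7.25 and 7.18 in knockout. The same air arrays were high and the same smoke array overlapped the air range. Its difference of -2.97 in wild type rested in part on replicate 1 of wild-type air, without which it was -1.83, while in knockout it was -1.65.

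Hbb-bt and Hbb-b2 encode beta chains of adult hemoglobin. They are close copies of each other, so a probe may read more than the gene it is named for. The level of the Hbb-bt probe was 12.99, 12.94 and 11.92 on the wild-type air arrays and 11.88, 13.09 and 12.26 on the knockout air arrays. Under smoke it was 10.75, 11.18, 10.84, 10.93 and 11.33 in wild type and 10.64, 10.91, 11.98, 11.48 and 11.77 in knockout. Replicate 3 of knockout smoke reached the lower end of the air range, and replicates 1 and 2 of wild-type air and 2 of knockout air were the highest. The differences were -1.61 in wild type and -1.06 in knockout. For Hbb-b2 they were -2.56 and -1.35, with air levels from 6.95 to 9.49 and smoke levels from 5.21 to 7.24. Its knockout value was -0.84 without replicate 2 of knockout air. The lowest smoke level of Hbb-b2 lay under the median level of 5.38 over all probes. On the scale of the selection rule, which left the background in, its differences were -1.44 in wild type and -0.66 in knockout.

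Rsad2 encodes viperin, an enzyme with antiviral action that interferon induces. Its level was 11.91, 10.54 and 9.61 on the wild-type air arrays and 9.49, 11.05 and 10.11 on the knockout air arrays. On smoke arrays it was 9.18, 9.42, 9.56, 8.76 and 8.90 in wild type and 8.64, 8.91, 9.64, 8.75 and 9.04 in knockout. The high arrays were those of the red-cell genes, 2 smoke arrays lay above the lowest air array, and r with Alas2 was 0.823. Rsad2 had a difference of -1.52 in wild type and -1.22 in knockout. The first was -0.91 without replicate 1 of wild-type air, and the second -0.81 without replicate 2 of knockout air.

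Over the 8 probes of this set the median difference was -2.26 in wild type and -1.4 in knockout. Leaving out single arrays gave wild-type medians from -2.86 without replicate 3 of air to -1.73 without replicate 1 of air. The knockout medians ran from -1.71 without replicate 1 of air to -0.91 without replicate 2 of air, and without replicate 3 of smoke the median was -1.7. The gap between the genotypes' medians thus depended on which array was left out. Replicate 1 of wild-type air was the highest air array for 7 of the 8, against 31.3% of the probes detected on all arrays. Replicate 3 of knockout smoke was the highest smoke array for all 8, against 19.3%. Alas2 itself was highest on the same 2 arrays, so these counts follow in part from how the set was made. Air arrays of this set spanned up to 4.25 log2 units on 1 probe. Only 1 of the 8, ILMN_2696610, had every air array above every smoke array, against 5.46% of the probes detected on all arrays. In homogenised lung, fewer cells of a type and less RNA in each cell cannot be told apart.

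**Figure D2:**
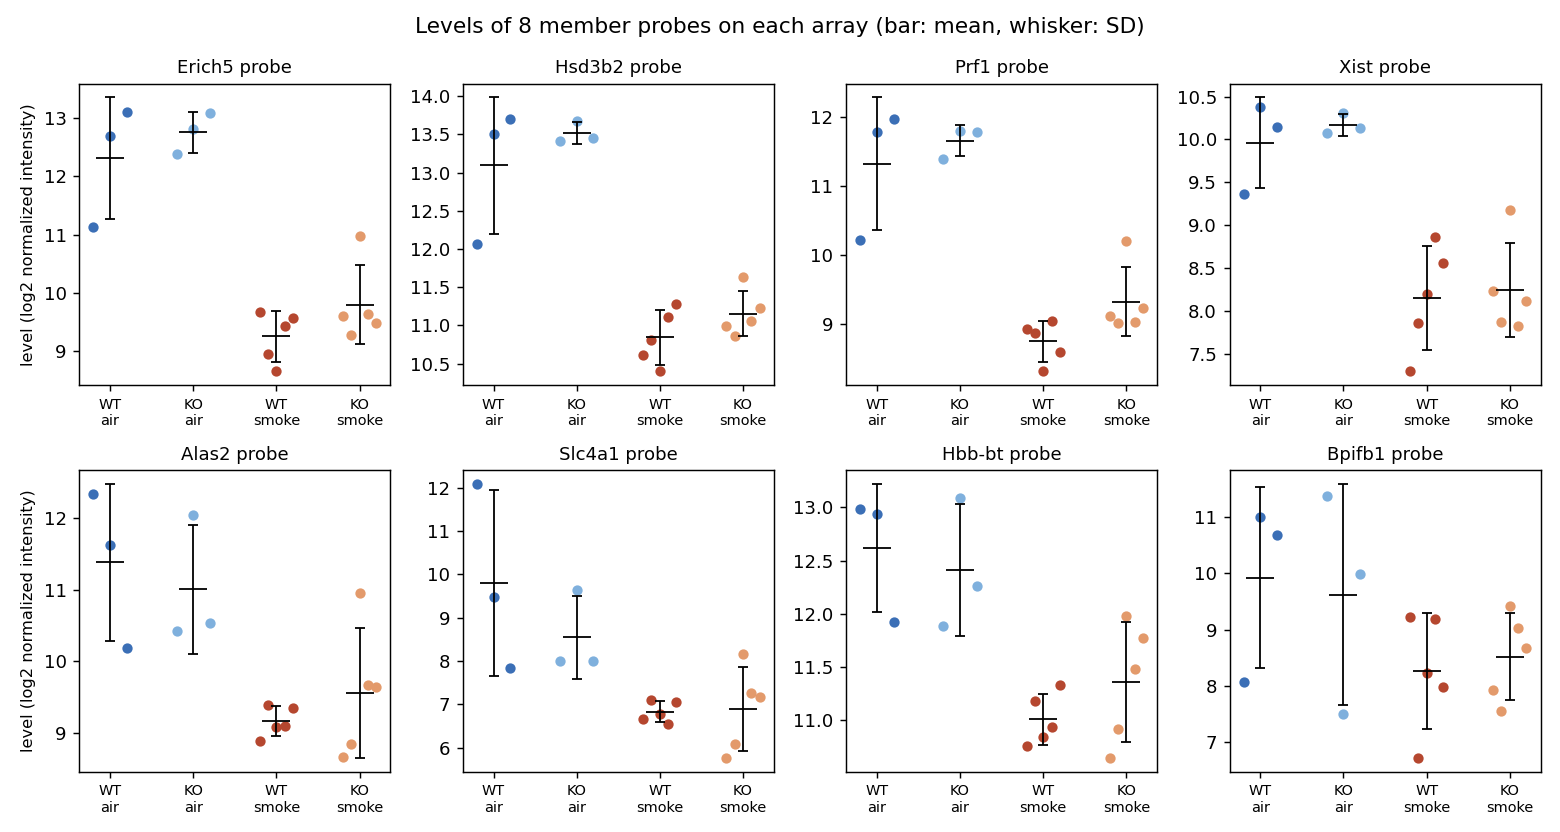
Level (log2 normalized intensity, a different range in each panel) of 8 member probes on each array in wild type (WT) and Mmp28 knockout (KO) under air or smoke, with points for arrays in replicate order, bars for means and whiskers for SD (n = 3 air and 5 smoke arrays per genotype). In the upper row no smoke array reached the lowest air array, with the smallest gap of 0.02 for Prf1; in the lower row the ranges overlapped.

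The erythroid list held 7 genes with a probe. Of these 6 were tested, 4 as members and 2 as others, and neither of the others passed the test in either genotype. Hba-a1, an alpha-globin gene, lay between 14.73 and 15.02 on all arrays, close to the highest level of any probe (15.06), with differences of -0.09 in wild type and -0.07 in knockout (limma adjusted p = 0.505 and 0.629). Car2, a carbonic anhydrase of red cells and other cells, differed by -0.58 and -0.34 (adjusted p = 0.176 and 0.474). How far the array still resolves a change at the level of Hba-a1 was not tested.

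The set around Erich5 held 10 named genes and 7 unnamed probes. Their r with Erich5 ran from 0.64 to 0.991 (rho 0.485 to 0.968), with a median of 0.838. Without replicate 1 of wild-type air and replicate 3 of knockout smoke it ran from 0.108, for Hr, to 0.963, for Rhbdl2, with a median of 0.66. Besides Hr, the r of ILMN_1223511 (0.36), Gm7609 (0.483), Ccdc144b (0.543), Hsd3b2 (0.548), ILMN_2605031 (0.569) and ILMN_2655163 (0.586) then lay under 0.6. Part of the likeness, and the placing of these probes, thus rested on those 2 arrays. Replicate 1 of wild-type air was the lowest air array for all 17 probes, where it was the lowest for 31.9% of the probes detected on all arrays. Erich5 itself was lowest there among air arrays, so this count follows in part from making the set by correlation with Erich5. On 16 of the 17 every air array lay above every smoke array, the exception being Hr. This held for 5.46% of the probes detected on all arrays, and the selection by the smoke-air difference itself raises the count.

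Erich5, named for a glutamate-rich protein, had the lowest rule value of all members. Its level was 11.13, 12.69 and 13.10 on the wild-type air arrays and 12.37, 12.80 and 13.07 on the knockout air arrays. The smoke values were 9.67, 8.95, 8.66, 9.44 and 9.58 in wild type and 9.60, 9.28, 10.98, 9.64 and 9.49 in knockout. Air arrays other than replicate 1 of wild type lay together, smoke arrays other than replicate 3 of knockout lay together, and the gap between the groups was 0.16. The difference was -3.05 in wild type, a level 8.27-fold lower, and -2.95 in knockout, 7.72-fold lower. Zxda, which encodes a zinc finger protein and has close copies, differed by -3.14 and -2.91, with air levels of 10.11 to 11.67 and smoke levels of 7.34 to 9.29.

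Among enzymes, Hsd3b2 encodes a hydroxysteroid dehydrogenase of steroid hormone metabolism. Its level was 12.07, 13.51 and 13.70 on the wild-type air arrays and 13.41, 13.68 and 13.45 on the knockout air arrays. Under smoke it was 10.62, 10.81, 10.40, 11.11 and 11.28 in wild type and 10.99, 10.86, 11.63, 11.06 and 11.23 in knockout. The groups did not overlap, and 5 of the 6 air arrays lay within 0.29 of each other. The differences were -2.25 and -2.36, or 4.75-fold and 5.12-fold lower. Rhbdl2 encodes a rhomboid protease that cuts proteins within the membrane, and its differences were -2.88 in wild type and -2.89 in knockout. Ddhd1 encodes a phospholipase that acts on phosphatidic acid, with differences of -1.79 and -1.84.

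Prf1 encodes perforin, with which cytotoxic T cells and natural killer cells make pores in their targets. Its level was 10.22, 11.77 and 11.97 on the wild-type air arrays and 11.39, 11.79 and 11.77 on the knockout air arrays. On smoke arrays it was 8.93, 8.87, 8.32, 9.04 and 8.60 in wild type and 9.12, 9.02, 10.20, 9.03 and 9.24 in knockout. Replicate 1 of wild-type air was the lowest air array and replicate 3 of knockout smoke the highest smoke array, and they nearly met. The differences were -2.57 in wild type and -2.33 in knockout. Ifngr2 encodes a chain of the receptor for interferon gamma and differed by -2.1 and -1.92, with air levels of 10.22 to 11.57 and smoke levels of 8.62 to 9.72.

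Hr encodes hairless, a nuclear corepressor known from the hair cycle. Its level was 9.06, 10.49 and 10.66 on the wild-type air arrays and 10.88, 10.52 and 10.36 on the knockout air arrays. The smoke values were 8.81, 8.90, 8.78, 8.71 and 9.48 in wild type and 8.66, 8.57, 8.97, 8.93 and 8.60 in knockout. Replicate 1 of wild-type air lay close to the smoke arrays, of which replicate 5 of wild type was above it. Hr was the member with the smallest difference in wild type, -1.13, which was -1.64 without replicate 1 of wild-type air, and in knockout it was -1.84. Ccdc144b, named for a coiled coil, differed by -2.6 in both genotypes and kept the widest gap between exposures, 1.3, of the members. Its smoke levels were low, at 5.36 to 6.64, beside a median level of 5.38 over all probes. On the scale of the selection rule, which left the background in, its differences were -1.53 in wild type and -1.48 in knockout. Gm7609, a predicted gene, differed by -2.33 and -2.16.

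The 7 unnamed probes of this set were ILMN_2899599, ILMN_3026397, ILMN_2822477, ILMN_2822160, ILMN_2655163, ILMN_2605031 and ILMN_1223511. Of these ILMN_2899599 had the largest difference, -3.04 in wild type and -2.78 in knockout, and ILMN_2605031 the smallest, -1.73 and -1.63. Over all 17 probes the median was -2.33 in wild type, and -2.76 without replicate 1 of wild-type air. In knockout it was -2.26, and -2.47 without replicate 3 of knockout smoke.

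**Figure D3:**
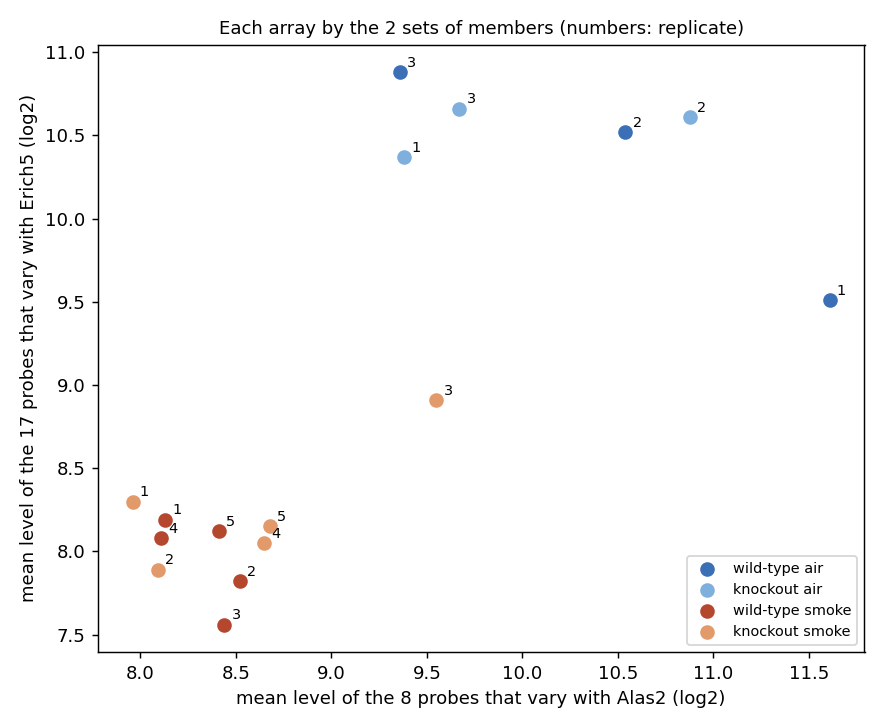
Mean level (log2) on each array of the 8 probes that varied with Alas2 (x axis) and of the 17 that varied with Erich5 (y axis), coloured by group, with the replicate number beside each point. Replicate 1 of wild-type air had the highest mean of the first set, 11.61, and the lowest mean of the second among air arrays, 9.51; replicate 3 of knockout smoke was the highest smoke array for both, at 9.55 and 8.91.

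Averaged over each set, the arrays moved in different ways. Replicate 1 of wild-type air was at 11.61 for the set around Alas2, where the other air arrays were at 9.36 to 10.88, and at 9.51 for the set around Erich5, where they were at 10.37 to 10.88. Replicate 3 of knockout smoke was at 9.55 and 8.91, where the other smoke arrays were at 7.96 to 8.68 and at 7.56 to 8.3. It was thus high in both sets, while replicate 1 of wild-type air was high in the first and low in the second. Replicate 3 of knockout smoke was the highest smoke array for 22 of the 27 members, against 19.3% of the probes detected on all arrays.

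Of the other members, Xist is the noncoding RNA that coats the inactive X chromosome in female cells. Its level was 9.37, 10.38 and 10.14 on the wild-type air arrays and 10.07, 10.31 and 10.13 on the knockout air arrays. Under smoke it was 7.30, 7.86, 8.20, 8.86 and 8.56 in wild type and 8.24, 7.88, 9.18, 7.83 and 8.12 in knockout. Every air array was above every smoke array by at least 0.18, and the differences were -1.81 and -1.92. Bpifb1 encodes a secreted protein of the airway lining. Its level was 8.07, 11.00 and 10.68 on the wild-type air arrays and 11.37, 7.50 and 9.99 on the knockout air arrays. On smoke arrays it was 9.22, 6.72, 8.23, 9.18 and 7.99 in wild type and 7.93, 7.56, 9.41, 9.03 and 8.68 in knockout. The exposures overlapped widely, with replicate 1 of wild type and 2 of knockout low among the air arrays, and the differences of -1.65 and -1.1 compare with within-group SDs of 0.77 to 1.96. In wild type the difference was -2.57 without replicate 1 of air, and in knockout it was -0.22 without replicate 1 of air and -2.16 without replicate 2 of air. Bpifb1 lay close to the selection threshold, and leaving out any 1 of 5 of the 16 arrays put it on the other side of the threshold, at -0.996 to -0.786.

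Other probes on the array read 9 of the 17 named genes, 14 probes in all, which the selection did not take up. They report the same contrast on the same genes, so their values are also a description. The Bpifb1 and Xist pairs moved alike. The further Bpifb1 probe differed by -1.56 in wild type and -0.91 in knockout, and it spanned 7.67 to 11.72 in air. The further Xist probe differed by -1.4 and -1.31, with air levels of 7.97 to 8.59 above smoke levels of 6.69 to 7.81. The further Hr probe, detected on 15 arrays, differed by -0.94 and -1.65. Of 5 further Hsd3b2 probes, ILMN_1234480 was detected on all 6 air arrays and on 6 of 10 smoke arrays and differed by -1.99 and -2.07, and the other 4 were detected on no array.

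For 5 genes no other probe matched the member's difference. The second Prf1 probe was at 6.86 to 8.03 in air and 6.52 to 7.43 under smoke, and its differences of -0.53 and -0.75 compare with -2.57 and -2.33 for the member. Both further Ifngr2 probes were detected on every array and differed by -0.31 to -0.45. The further Ddhd1 probe differed by 0.18 in wild type and -0.08 in knockout. The second probes for Erich5 and Ccdc144b were detected on no array. For these 5 genes the difference is therefore a reading of 1 probe, and which transcripts that probe binds was not tested, since probe sequences were not used here. The 8 other named genes, among them Alas2, Slc4a1, Rhbdl2, Zxda and Rsad2, had 1 probe each.

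**Figure D4:**
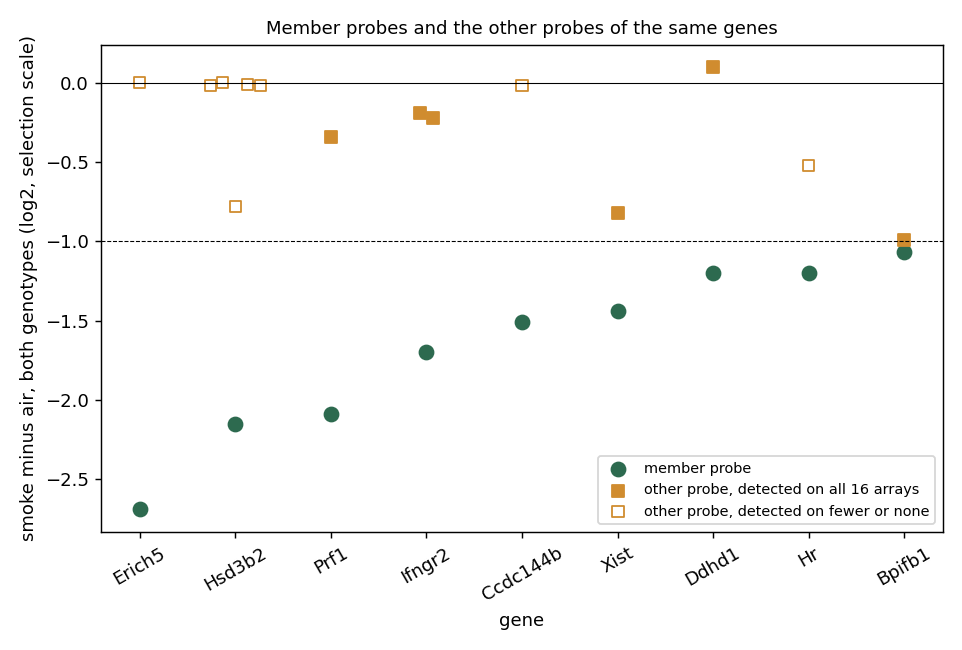
Mean log2 difference between smoke and air over both genotypes, on the scale of the selection rule, for the member probe (circle) and the other probes (squares) of the 9 genes with more than 1 probe; open squares were detected on fewer than 16 arrays or on none, and the dashed line is the threshold of -1. The other probe is close to the member for Bpifb1 (-0.99 beside -1.07) and near 0 for Ddhd1 (0.1 beside -1.2).

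Prf1 belongs to the list of T and natural killer cell genes, of which 20 other probes were tested, the second Prf1 probe included. Under smoke 11 of these fell in wild type, where 13.4% of all tested probes fell, and 4 fell in knockout, where 9.83% did, while 0 rose in either (limma, adjusted p under 0.05). Named for their small adjusted p after the values were seen, the falls in wild type included those of Klrd1, a receptor chain of natural killer cells, with a difference of -0.87 ± 0.16 (SE, adjusted p = 0.000893), and Nkg7, a granule protein of the same cells, with a difference of -0.77 ± 0.15 (SE, adjusted p = 0.00111). In knockout Klrd1 fell, with a difference of -0.6 ± 0.16 (SE, adjusted p = 0.0154), while Nkg7 differed by -0.25 ± 0.15 (SE, adjusted p = 0.25). Without replicate 1 of wild-type air, 17 fell in wild type and 6 in knockout, and the share over all probes in that fit is not given here. The median over these probes went from -0.52 to -0.75 in wild type and stayed at -0.18 in knockout. The knockout comparison holds no wild-type array, so only the shared estimate of spread and the adjustment changed there. With all arrays, these 20 probes' differences ran from -0.87 to 0.09 in wild type, beside -2.57 for the Prf1 member.

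Rsad2 belongs to the list of interferon-responsive genes, with 31 other probes tested. Of these 7 fell in wild type, where 13.4% of all tested probes fell, and 1 in knockout, where 9.83% did, and 0 rose. Among the falls in wild type were those of the Irf1 probes ILMN_2624100, ILMN_2649067 and ILMN_2649068, at -0.96, -0.7 and -0.61. The Irf1 probes ILMN_2599782 and ILMN_2834777 were not called there, at -0.28 and -0.18 (limma adjusted p = 0.235 and 0.366). The fall with the smallest adjusted p, named after the values were seen, was that of Oas2, an antiviral enzyme that makes oligoadenylates, with -1.6 ± 0.29 (SE, limma adjusted p = 0.000829) in wild type and -0.96 ± 0.29 (SE, adjusted p = 0.0302) in knockout. Replicate 1 of wild-type air was the highest of all 16 arrays for 29 of the 31. Without it 3 fell and 1 rose in wild type, and the median over these probes went from -0.49 to 0.01. The share over all probes in that fit is not given here, for wild type or knockout. Without that array the wild-type median of this list thus no longer lay below 0, while 3 of its probes still fell. In knockout 4 fell and 3 rose without replicate 1 of wild-type air, while the median stayed at -0.07. The knockout comparison holds no wild-type array, so only the shared estimate of spread and the adjustment changed there. For Rsad2 too replicate 1 of wild-type air was the highest array.

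The knockout and wild-type groups were then compared, a contrast that the selection did not use, since each genotype has the same number of air and smoke arrays. No member passed the test of genotype in limma with adjustment over all 16126 probes. In air 0 of 27 members were called, where 44 of all tested probes were (0.273%). Under smoke 0 were called, against 7 of all (0.0434%), and for the interaction, which asks whether the smoke-air difference itself differed between genotypes, 0 were called among members and among all probes (0.0%). At an unadjusted p under 0.05 the members gave 0 in each comparison, where 13.7%, 4.46% and 7.4% of all probes passed. The smallest adjusted p among members was 0.479 in air, 0.999 under smoke and 0.702 for the interaction.

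The intervals were wide. The median half-width of the members' 95% confidence intervals was 0.75 in air, 0.58 under smoke and 0.95 for the interaction, and the whole interval lay within 1 log2 unit of 0 for 10, 15 and 8 of the 27 members. For the remaining members a difference of 1 log2 unit lay within the interval. The members with the 2 smallest p in each direction are given here. In air Hr was at 0.52 ± 0.31 in knockout minus wild type (SE, limma adjusted p = 0.479), and Slc4a1 was at -1.25 ± 0.77 (SE, limma adjusted p = 0.497). Hsd3b2 differed by 0.42 ± 0.33 and ILMN_2696610 by -0.41 ± 0.29 (SE, limma adjusted p = 0.603 and 0.555). Without replicate 1 of wild-type air these 4 differences were 0.01 for Hr, -0.11 for Slc4a1, -0.09 for Hsd3b2 and -0.09 for ILMN_2696610, and without replicate 3 of wild-type air they were 0.81, -2.23, 0.72 and -0.68. Under smoke ILMN_2899599 differed by 0.54 ± 0.27 and Prf1 by 0.57 ± 0.29 (SE, limma adjusted p = 0.999 for both), and in the other direction Hr by -0.19 ± 0.24 and Rsad2 by -0.17 ± 0.35 (SE, also 0.999). Without replicate 3 of knockout smoke these were 0.34, 0.35, -0.25 and -0.33. For the interaction, in which a value above 0 is a smaller difference in knockout, ILMN_2696610 was at 0.69 ± 0.37, Hbb-b2 at 1.21 ± 0.68, Hr at -0.71 ± 0.39 and Hsd3b2 at -0.11 ± 0.41 (SE, limma adjusted p = 0.702, 0.719, 0.718 and 0.969). They were 0.37, 0.62, -0.2 and 0.4 without replicate 1 of wild-type air, and Hbb-b2 was at 1.89 without replicate 3 of wild-type air.

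The direction of the genotype difference in air changed without 1 array. With all arrays, 0 of the 8 probes around Alas2 and 16 of the 17 around Erich5 were higher in knockout air than in wild-type air, against 46.4% of all tested probes. Without replicate 1 of wild-type air, 4 of the 8 and 2 of the 17 were higher, with medians of 0.03 and -0.15. Under smoke 24 of the 27 were higher in knockout, against 50.1% of all tested probes, with a median of 0.33 beside 0.0 over all probes. Without replicate 3 of knockout smoke 22 of the 27 were higher, with a median of 0.12. Members of a set vary together, so these counts are not 27 separate observations, and they were not tested.

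**Figure D5:**
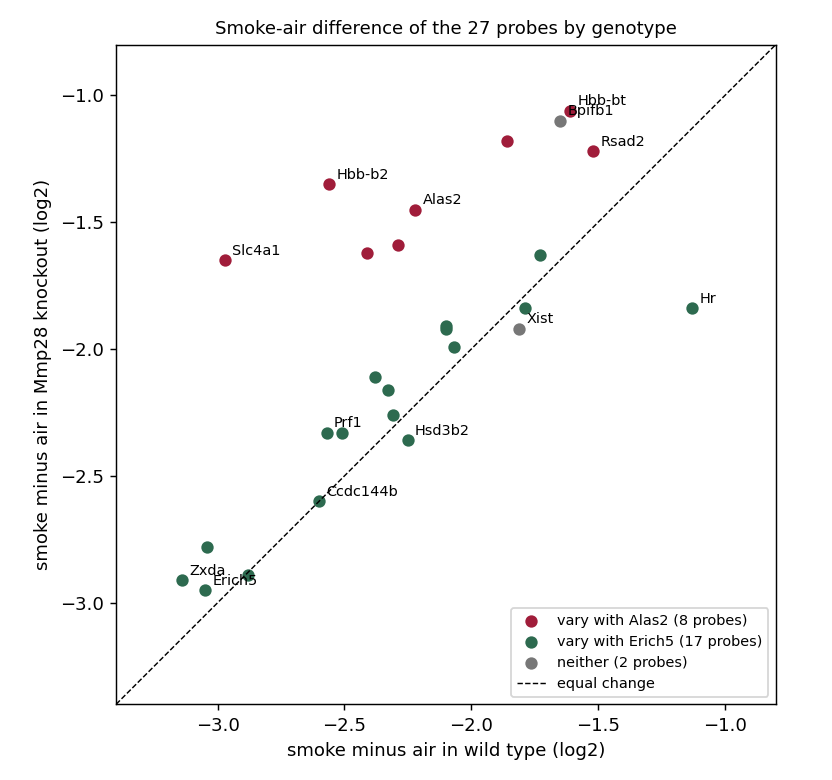
Difference between smoke and air (log2) in wild type (x axis) and in Mmp28 knockout (y axis) for the 27 member probes, coloured by set, with a dashed line where both are equal. The set around Alas2 lies above the line, with smaller differences in knockout, and most of the set around Erich5 lies close to it; Hr, at -1.13 and -1.84, lies below.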

How the data were processed

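The submitters deposited 1 table of 25697 probes by 16 arrays with an unnormalized intensity, still holding its background (lowest 90.9, highest 38084), and the detection p-value of every reading. They also deposited normalized intensity values, which were not centred, had a median of 211.0 on every array and kept each array's order of probes (Spearman's rho 1.0 with the unnormalized values). Of tools, the submitters' processing notes list only lumi, and no version. Scanner software, BeadChip and hybridization batch: not given in the sources used here. No 2 of the 120 pairs of arrays were identical, and the Spearman correlation within groups was 0.958 to 0.990.

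Intensities were background corrected by normexp from the detection p-values (offset 16), quantile normalized and put on the log2 scale with limma 3.58.1 in R 4.3.3. Probes with a detection p-value under 0.05 on at least 3 arrays (16126) were fitted with 4 group means on all 16 arrays, followed by eBayes and Benjamini-Hochberg adjustment over all of them. A probe with an adjusted p under 0.05 was called. The number of arrays limits the precision.

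Genes were named from the platform annotation, which lists 23978 of the 25697 probes, 0 with several genes and 1719 not listed. Every named member is described. The members, the sets and the gene lists were chosen with earlier results of these data known. Of 29 gene lists, 3 hold a member and are reported, and the others were not used here. A planned permutation test of member levels per array was not run, since the members' choice leaves no p for a score over them. Alternatives were an offset of 50, median scaling, no background correction, the authors' normalized values, other filters, array weights, trend and robust settings, the replicate number as a block, the array background as a covariate, only the groups compared, other selection settings and leaving out each array. Leaving out both arrays that stood apart was added after seeing the data. A planned block for the BeadChip could not be fitted, since no header gives it.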

Additional observations from a re-analysis of the deposited data

Results flagged for a closer look

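Each member was checked in both smoke groups for an array far from the other 4 (a gap above the 95% critical value of Dixon's test), 54 checks in all. Of these 11 met the criterion, where chance gives about 1 in 20, or 2.7, and members that vary together are not separate checks. Replicate 3 of knockout smoke was far above the others for 8 members. The levels there were 10.98 for Erich5 (others 9.28 to 9.64), 10.42 for Rhbdl2 (9.04 to 9.3), 10.2 for Prf1 (9.02 to 9.24), 8.96 for Gm7609 (7.9 to 8.15) and 9.72 for Ifngr2 (8.94 to 9.15). For unnamed probes they were 9.09 for ILMN_2899599 (7.95 to 8.2), 11.54 for ILMN_3026397 (10.41 to 10.66) and 9.56 for ILMN_2696610 (8.6 to 8.73). In wild-type smoke, replicate 3 was low for ILMN_2822160, at 5.55 (others 6.25 to 6.49), replicate 5 was high for Hr, at 9.48 (8.71 to 8.9), and replicate 1 was high for ILMN_1223511, at 7.04 (5.67 to 5.97).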

How the results depend on the processing

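The number of members, 27, was 121 on background-corrected and quantile-normalized values and 51 with a threshold of 0.8, and it lay between 20 and 33 under the other selection settings. Leaving out 1 array gave 25 to 32 members. Rsad2 and Hbb-b2 were lost without replicate 1 of wild-type air (-0.845 and -0.821), and Hbb-b2 also without replicate 2 of wild-type air or of knockout air. The members' median difference in wild type was -1.59 with no background correction and -1.46 on the authors' normalized values, and in knockout -1.3 and -1.18; leaving out 1 array gave -2.47 to -2.13 and -2.06 to -1.84. Without replicate 1 of wild-type air the counts of falling probes went from 11 to 17 for T and natural killer cell genes in wild type. For interferon-responsive genes they went from 7 to 3 in wild type and 1 to 4 in knockout. The shares over all probes without that array are not given here. The knockout differences do not use that array, so in knockout the estimate of spread and the adjustment changed, and the differences did not. The counts of members called for genotype and interaction were 0 under every alternative run, the replicate block included. Same-numbered arrays did not deviate together (r -0.21 to 0.16 over 20 pairs, 5 over 0.1), so the numbers were not taken to pair the samples. Some small genotype differences turned sign: Hsd3b2 in air to -0.09 (-0.09 to 0.72 over single arrays left out) without replicate 1 of wild-type air (also without both arrays that stood apart), Rsad2 under smoke to 0.01 with background as a covariate, and the Hsd3b2 interaction to 0.02 with no background correction, 0.08 with median scaling, 0.2 with array weights, 0.0 without replicate 5 of wild-type smoke, 0.4 without replicate 1 of wild-type air and 0.29 without both (-0.41 to 0.4 over single arrays left out); the cause was not tested. Other single arrays moved the small genotype differences under smoke and in the interaction too, and the ILMN_2696610 difference in air, which ran from -0.71 to -0.09. Over the alternatives, adjusted p of the members named for genotype ran from 0.129 to 1.0.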
